A study of Mus musculus with 12 samples.

Results

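Sorted BN1-Tie2-EGFP cells that were returned to low oxygen supplied 6 of the 12 RNA-seq libraries of the series, and the response of all their genes is described here by function. BN1 is an immortalized murine hepatoblastoma (HB) line from a tumor driven by mutant β-catenin and NRF2 in which CRISPR had mutated Cdkn2a (Cdkn2a KO in the labels, described in the study as mutations of exon 2 that inactivate the locus in part), and it was stably transfected with EGFP under the Tie2 (Tek) promoter, the transfected clones being pooled. The brightest cells after 2 days in 1% oxygen were sorted and then grown in 21% oxygen for approximately 10 days. This gave the sorted normoxic group (SN, n = 3). SN cells exposed again to 1% oxygen for 2 additional days gave the sorted hypoxic group (SH, n = 3). Unsorted cells in 21% oxygen (UN, n = 3) and after 2 days in 1% oxygen (UH, n = 3) carry the same drivers, Cdkn2a targeting and reporter, and are used only where the response of the sorted cells is set against theirs. The SH vs SN comparison thus asks what a return to low oxygen does to cells that had already been through it once.

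The sort was for the reporter and not for the endogenous Tek transcript, and all cells come from 1 tumor line. No source says whether the 3 libraries of a group were separate cultures, so that p-values measure only the spread between these libraries. Nor is it stated whether SN and SH libraries came from 1 sort. A difference of sort or of time since sorting therefore cannot be told apart from low oxygen. Values are TPM (the transcript abundance unit that corrects for transcript length and library total), whose depth is unknown, and precision is given by the spread between libraries. Of 45706 genes listed, the 18909 with a mean of at least 0.1 TPM over the 12 libraries were tested with limma on log2(TPM + 1), and a gene was called higher or lower in SH when its fold change was above 2 and its p, adjusted by Benjamini and Hochberg over all tested genes, was under 0.05. A log2 fold change below is always on this log2(TPM + 1) scale, which makes changes of low genes smaller. Between 18901 and 20241 genes were above 0 in an SN library and between 21666 and 22369 in an SH library. Across genes, which are not independent replicates, Pearson's r was 0.985 to 0.989 among SH libraries, 0.988 to 0.991 among SN libraries and 0.943 to 0.960 between them. SH replicate 3 was nearer to the SN libraries (0.955 to 0.960) than SH replicates 1 and 2 were (0.943 to 0.949). Cdkn2a RNA was still read, at 12.6, 10.4 and 16.5 TPM in SN, 7.37, 9.32 and 8.69 TPM in SH and between 66.4 and 327 TPM in unsorted libraries. A gene-level TPM does not test an edit of the locus.

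Cells read oxygen through prolyl hydroxylases of the EGLN family, which need it to mark the α subunits of hypoxia-inducible factors (HIF) for destruction by VHL. When oxygen falls, HIF-α is spared, pairs with ARNT and binds short DNA elements built on ACGTG or GCGTG at genes for glucose use, blood vessel growth, red cell formation and mitochondrial turnover. Other enzymes that spend oxygen, among them collagen hydroxylases, histone demethylases and several steps of sterol and unsaturated fatty acid synthesis, are limited directly. In liver tumors low oxygen is common where growth outruns the vessels.

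The promoter windows below show where these letters lie at 4 genes called higher, which were picked by hand and are not the 4 largest rises. They are the oxidoreductase Ero1l (Ero1a in RefSeq), the mitophagy receptor Bnip3, the platelet-type phosphofructokinase Pfkp and the collagen prolyl hydroxylase P4ha2. Hmgcs1, an early enzyme of cholesterol synthesis that fell, is shown with them. Each window is the 250 bases before and 50 bases after the RefSeq transcription start on GRCm38.p6, the assembly also called mm10, read 5′ to 3′ along the gene. Capitals mark ACGTG or GCGTG, or their reverse complements CACGT and CACGC, in the first 4 windows, and CACCCCAC, letters of a sterol regulatory element, in the last.
Ero1l, chr14:45318523-45318822, strand -: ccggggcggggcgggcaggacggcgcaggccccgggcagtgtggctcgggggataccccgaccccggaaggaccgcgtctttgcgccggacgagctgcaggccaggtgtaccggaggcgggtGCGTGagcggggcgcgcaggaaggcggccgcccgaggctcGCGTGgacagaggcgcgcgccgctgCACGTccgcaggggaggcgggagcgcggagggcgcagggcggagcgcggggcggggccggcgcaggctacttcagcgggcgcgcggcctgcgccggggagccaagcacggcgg
Bnip3, chr7:138909457-138909756, strand -: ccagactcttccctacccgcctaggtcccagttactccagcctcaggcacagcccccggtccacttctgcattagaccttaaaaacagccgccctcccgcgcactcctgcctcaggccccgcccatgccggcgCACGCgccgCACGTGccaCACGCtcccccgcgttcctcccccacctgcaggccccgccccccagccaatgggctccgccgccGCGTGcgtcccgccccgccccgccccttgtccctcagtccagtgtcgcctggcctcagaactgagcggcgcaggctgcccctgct
Pfkp, chr13:6648722-6649021, strand -: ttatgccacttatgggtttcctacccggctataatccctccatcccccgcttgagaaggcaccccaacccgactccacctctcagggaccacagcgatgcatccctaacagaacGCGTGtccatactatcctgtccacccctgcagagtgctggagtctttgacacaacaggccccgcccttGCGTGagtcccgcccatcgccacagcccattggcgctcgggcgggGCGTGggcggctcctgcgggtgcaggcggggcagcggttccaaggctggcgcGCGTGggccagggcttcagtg
P4ha2, chr11:54100674-54100973, strand +: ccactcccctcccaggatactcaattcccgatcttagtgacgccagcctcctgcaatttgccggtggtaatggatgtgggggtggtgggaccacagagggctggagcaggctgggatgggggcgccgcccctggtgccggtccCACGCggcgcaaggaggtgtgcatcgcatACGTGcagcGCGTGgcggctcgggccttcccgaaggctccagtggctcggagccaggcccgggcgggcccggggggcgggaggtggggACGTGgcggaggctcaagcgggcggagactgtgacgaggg
Hmgcs1, chr13:119690101-119690400, strand +: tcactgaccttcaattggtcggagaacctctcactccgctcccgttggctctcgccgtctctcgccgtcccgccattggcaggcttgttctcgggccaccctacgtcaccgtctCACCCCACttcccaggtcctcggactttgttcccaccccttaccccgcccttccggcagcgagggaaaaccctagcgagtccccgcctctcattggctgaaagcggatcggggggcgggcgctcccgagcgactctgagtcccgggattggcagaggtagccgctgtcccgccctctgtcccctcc

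In these windows the HIF letters occurred 3 times at Ero1l, 5 times at Bnip3, where one palindrome counts on both strands, 4 times at Pfkp and 4 times at P4ha2, and CACCCCAC occurred once at Hmgcs1, starting 136 bases before the start site. Over all 32851 promoter windows of that length, 43.8% held ACGTG or GCGTG on either strand and 2.87% held CACCCCAC on either strand, so a match to the shorter letters is common. The windows for Ankrd37, P4ha1 and Egln1 held 4, 3 and 2 matches. Only 62% of tested genes have a window in the table, and no share over the called genes is given for that reason.

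In SH, 1412 genes (7.47% of those tested) were called higher than in SN and 945 (5.0%) lower, or 12.5% together. Among the called genes 2343 had no overlap between the SH and SN libraries and 14 did; 56.8% of all tested genes had none. More than 4-fold changes numbered 315 upward and 103 downward. Of the genes called higher, 502 had a mean below 1 TPM in SN, whereas 82 of the genes called lower had a mean below 1 TPM in SH. Protein-coding genes made up 1144 of the higher and 882 of the lower genes. Of the called-higher genes with a position, 20.6% had another called-higher gene within 10 kb, against 9.67% of all tested genes, and of the called-lower genes 11% had another called-lower gene within 10 kb, against 6.04%.

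**Figure D1:**
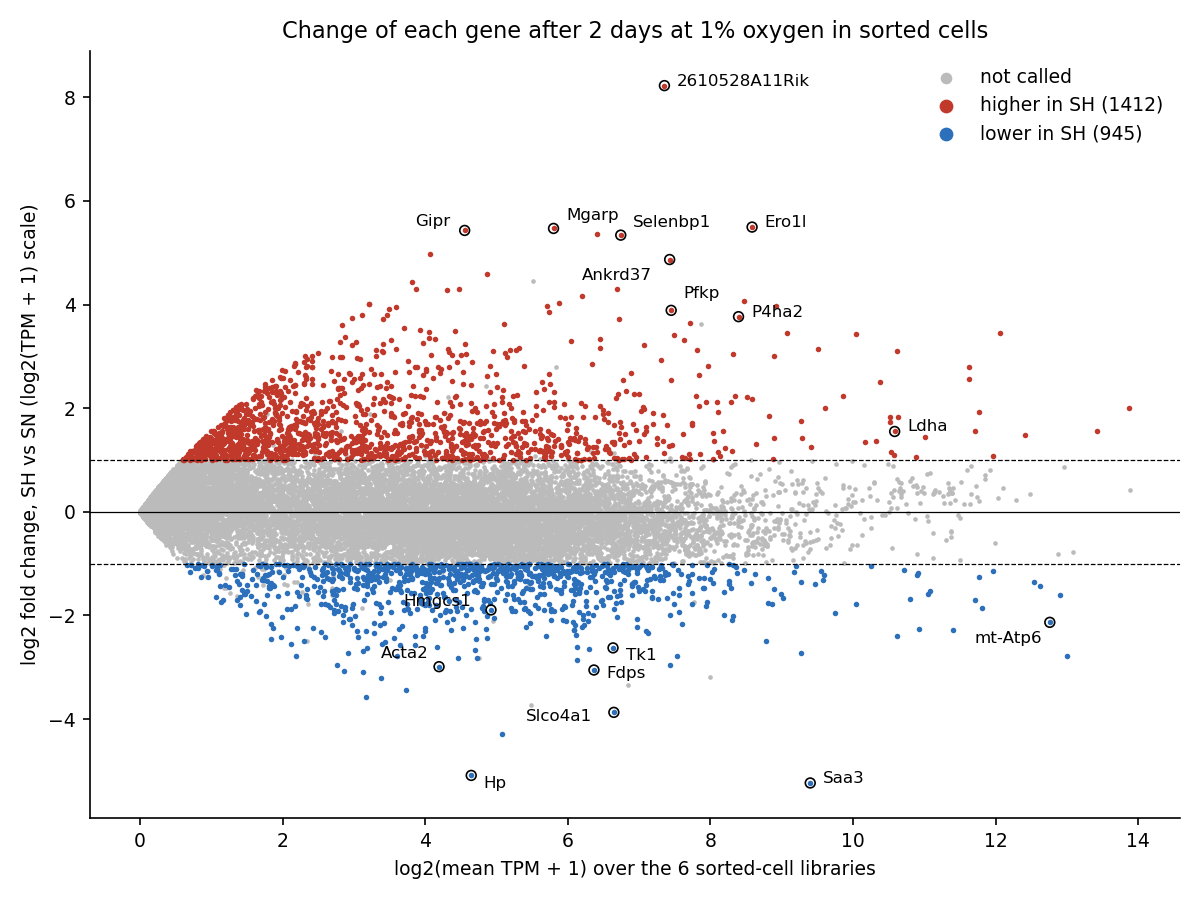
Each point is 1 of the 18909 tested genes, with log2(mean TPM + 1) over the 6 sorted-cell libraries on the horizontal axis and the SH vs SN log2 fold change on the vertical axis. The 1412 genes called higher are red, the 945 called lower are blue, dashed lines mark a 2-fold change, and the named genes show that the rise of 2610528A11Rik (8.22) stands above all others while Saa3 and Hp fell most.

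The largest rise was that of 2610528A11Rik (ENSMUSG00000096001, chromosome 14, 37102140 to 37114022, minus strand), which RefSeq also lists as Gpr15l, the gene of a secreted ligand of the GPR15 receptor. It read 0, 0.199 and 0.0745 TPM in SN and 311, 305 and 361 TPM in SH, 8.22 apart on the log2 scale (standard error 0.34, adjusted p = 3.4e-08). From nearly nothing it thus reached the range of Pfkp, an abundant glycolytic message, in SH. Ero1l (chromosome 14, 45283087 to 45318771), an endoplasmic reticulum oxidase that makes disulfide bonds, read 15.3, 13.8 and 16.4 TPM in SN and 808, 937 and 507 TPM in SH (log2 fold change 5.50). Mgarp, a mitochondrial protein that responds to hypoxia, went from 0.998, 1.09 and 2.38 TPM to 123, 121 and 80.7 TPM. Selenbp1 (chromosome 3, 94933056 to 94944758), a methanethiol oxidase with a near-identical neighbor Selenbp2 that could share its reads, went from 3.90, 4.18 and 4.16 TPM to 230, 237 and 157 TPM. All 4 were lower in every SN library than in any SH library, which the choice of genes with the largest changes required. For Ero1l, Mgarp and Selenbp1 SH replicate 3 was the lowest of the SH libraries.

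Several of the strongest rises were of genes best known from other tissues. Gipr, the receptor of the gut hormone GIP, was at 0, 0.0451 and 0 TPM in SN and at 57.8, 50.5 and 26.7 TPM in SH. Aire, the regulator of self-antigens in the thymus, was at 0, 0.034 and 0 TPM and then at 40.2, 29.6 and 24.9 TPM, and it overlaps Dnmt3l on the other strand. Robo3, an axon guidance receptor, went from 2.25, 3.68 and 3.25 TPM to 185, 175 and 136 TPM, a log2 fold change of 5.36 (standard error 0.16). Epithelial products were also among them. Muc2, the gel-forming mucin of the gut, read 0.11, 0.714 and 0.397 TPM in SN and 36.2, 21.3 and 23.5 TPM in SH, and Cdsn, which holds cornified skin cells together, read 6.53, 7.65 and 6.16 TPM and then 156, 116 and 143 TPM. In none of these 5 did the groups overlap, which was again a condition of the choice.

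Saa3 and Hp fell most. Saa3 (chromosome 7, 46711998 to 46715700), an acute-phase serum amyloid, dropped from 1312, 1434 and 1199 TPM in SN to 37.5, 41.6 and 24.9 TPM in SH, a change of −5.23 on the log2 scale (standard error 0.30, adjusted p = 3.65e-07). Hp (chromosome 8, 109575128 to 109579172), the hemoglobin scavenger haptoglobin, dropped from 36.6, 39.4 and 67.1 TPM to 0.155, 0.451 and 0.572 TPM. For both, the SN and SH libraries lay in separate ranges, under the same condition of choice. Agt, the angiotensin precursor, fell by 3.21 on the log2 scale and Serpina3f, a serine protease inhibitor of the acute-phase group, by 3.06. Slco4a1, an organic anion transporter, went from 192, 182 and 185 TPM to 12.4, 12 and 11.2 TPM and Slc17a1, a phosphate and urate carrier, from 25.0, 25.4 and 19.2 TPM to 0.884, 0.857 and 2.08 TPM.

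A set of 40 gene lists was used to describe the response by function, and the plot of list shares gives the called members of each. Glycolysis and HIF target genes were at one end and DNA replication, mitochondrial messenger RNAs and cholesterol synthesis at the other. Each share below is to be read against 7.47% of all tested genes called higher and 5.0% called lower, and each median against 0.03, that of all genes tested. No test was made of a list as a whole. The members of the lists and the cell type markers were chosen with earlier results of these data known, so the shares are description only.

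**Figure D2:**
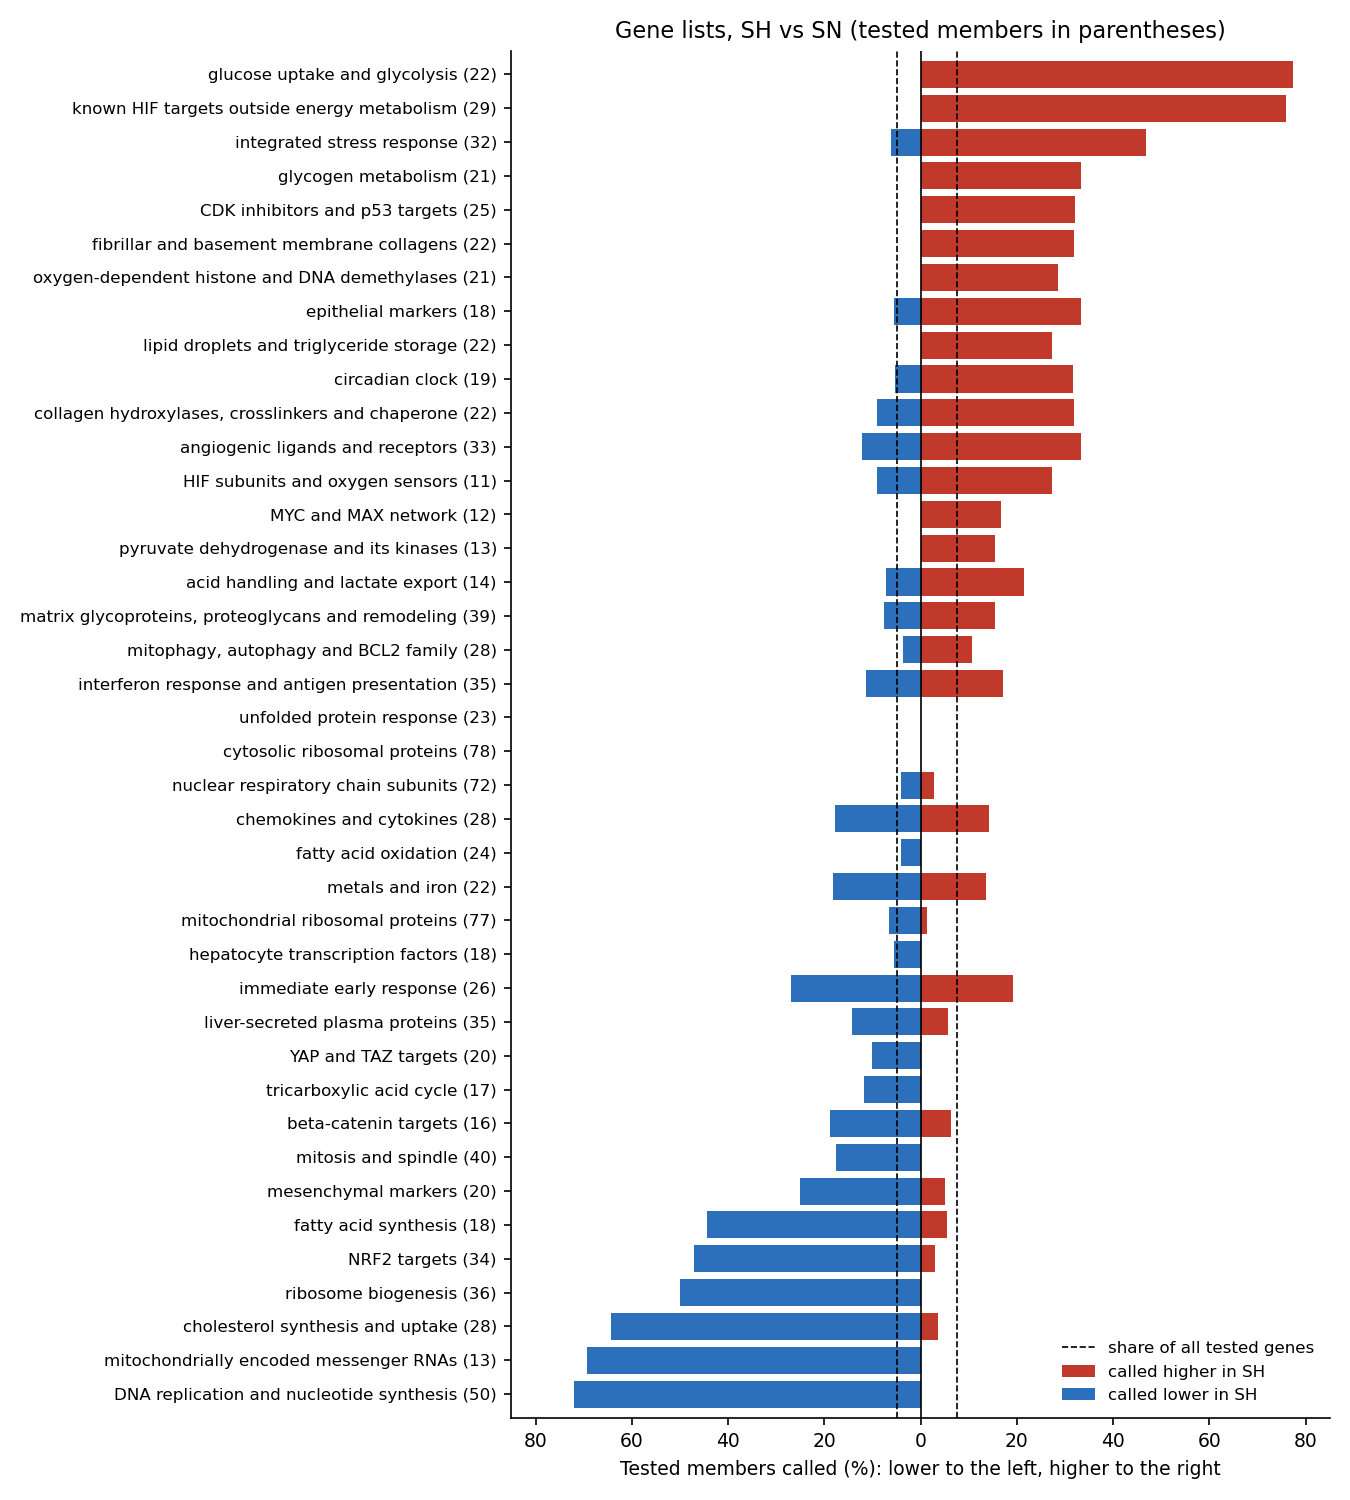
Bars give the percentage of each list's tested members (their number in parentheses) called higher in SH (red, to the right) or lower in SH (blue, to the left), and dashed lines mark the shares among all tested genes, 7.47% and 5.0%. Glycolysis (17 of 22) and HIF targets (22 of 29) have the longest red bars, DNA replication (36 of 50) and mitochondrially encoded messenger RNAs (9 of 13) the longest blue bars. List members were chosen with earlier results of these data known.

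Among oxygen sensors and HIF subunits, 3 of 11 tested members were called higher and 1 lower, with a median of 0.03. The 3 were parts of the brake on HIF. Egln1 went from 50.7, 51.2 and 48.7 TPM to 298, 309 and 281 TPM (log2 fold change 2.54, standard error 0.087, adjusted p = 1.45e-08) and Egln3 from 3.12, 2.99 and 3.74 TPM to 30.2, 29.8 and 18.3 TPM (2.63). Vhl, which carries hydroxylated HIF-α to the ubiquitin system, rose by 1.53 on the log2 scale. Transcripts of the factors themselves were not raised: Hif1a read 62.8, 58.3 and 76.9 TPM in SN and 49.4, 53.9 and 36.4 TPM in SH (−0.50, adjusted p = 0.0969), Epas1, the HIF-2α gene, stayed near 1 TPM (−0.33, adjusted p = 0.342) and Arnt gave 0.07 (adjusted p = 0.813). Arnt2, a relative of Arnt, was called lower (−1.04), but not without SH replicate 3 (−0.92) or with quantile normalization (−0.98).

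Known HIF targets outside energy metabolism gave 22 called higher of 29 tested and none called lower, with a median of 2.11. Beside Ero1l and Selenbp1, Ankrd37 was among the strongest, from 12.1, 6.35 and 13.5 TPM to 369, 379 and 248 TPM (4.87). Bnip3, whose product tags mitochondria for autophagy, read 50.5, 49.9 and 72.4 TPM in SN and 931, 1007 and 802 TPM in SH (3.98, standard error 0.16). Vegfa, the main vessel growth factor, read 83.3, 90.1 and 147 TPM in SN and 930, 943 and 660 TPM in SH (3.00). The groups lay far apart for all 3. Adm, the vasodilator adrenomedullin, moved more unevenly, from 1.12, 0.865 and 0.507 TPM to 30.6, 30.6 and 8.43 TPM (3.54, standard error 0.75), with SH replicate 3 well under the others. Ddit4, an inhibitor of mTOR signaling, rose by 1.56, with SH replicate 3 (126 TPM) only modestly above SN replicate 3 (98.3 TPM). Mitophagy and cell death genes otherwise showed 3 higher and 1 lower of 28 tested: Bnip3 and its relative Bnip3l (1.93), Atg9b (4.31), a membrane protein of early autophagosomes, and Bid (−1.68), a death agonist.

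Enzymes that remove methyl groups from histones or DNA with the help of oxygen gave 6 of 21 tested members called higher and none lower, with a median of 0.42. Kdm4b rose from 16.9, 18.2 and 22 TPM to 88.1, 92.3 and 75.2 TPM (2.11), Jmjd6 by 2.03 and Kdm3a, a histone H3 lysine demethylase long known as a HIF target, by 1.82. Tet2, which oxidizes methylated cytosine, was called at 1.90, but SN was spread from 7.35 to 23.8 TPM and the call was lost without SN replicate 1 (1.53).

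**Figure D3:**
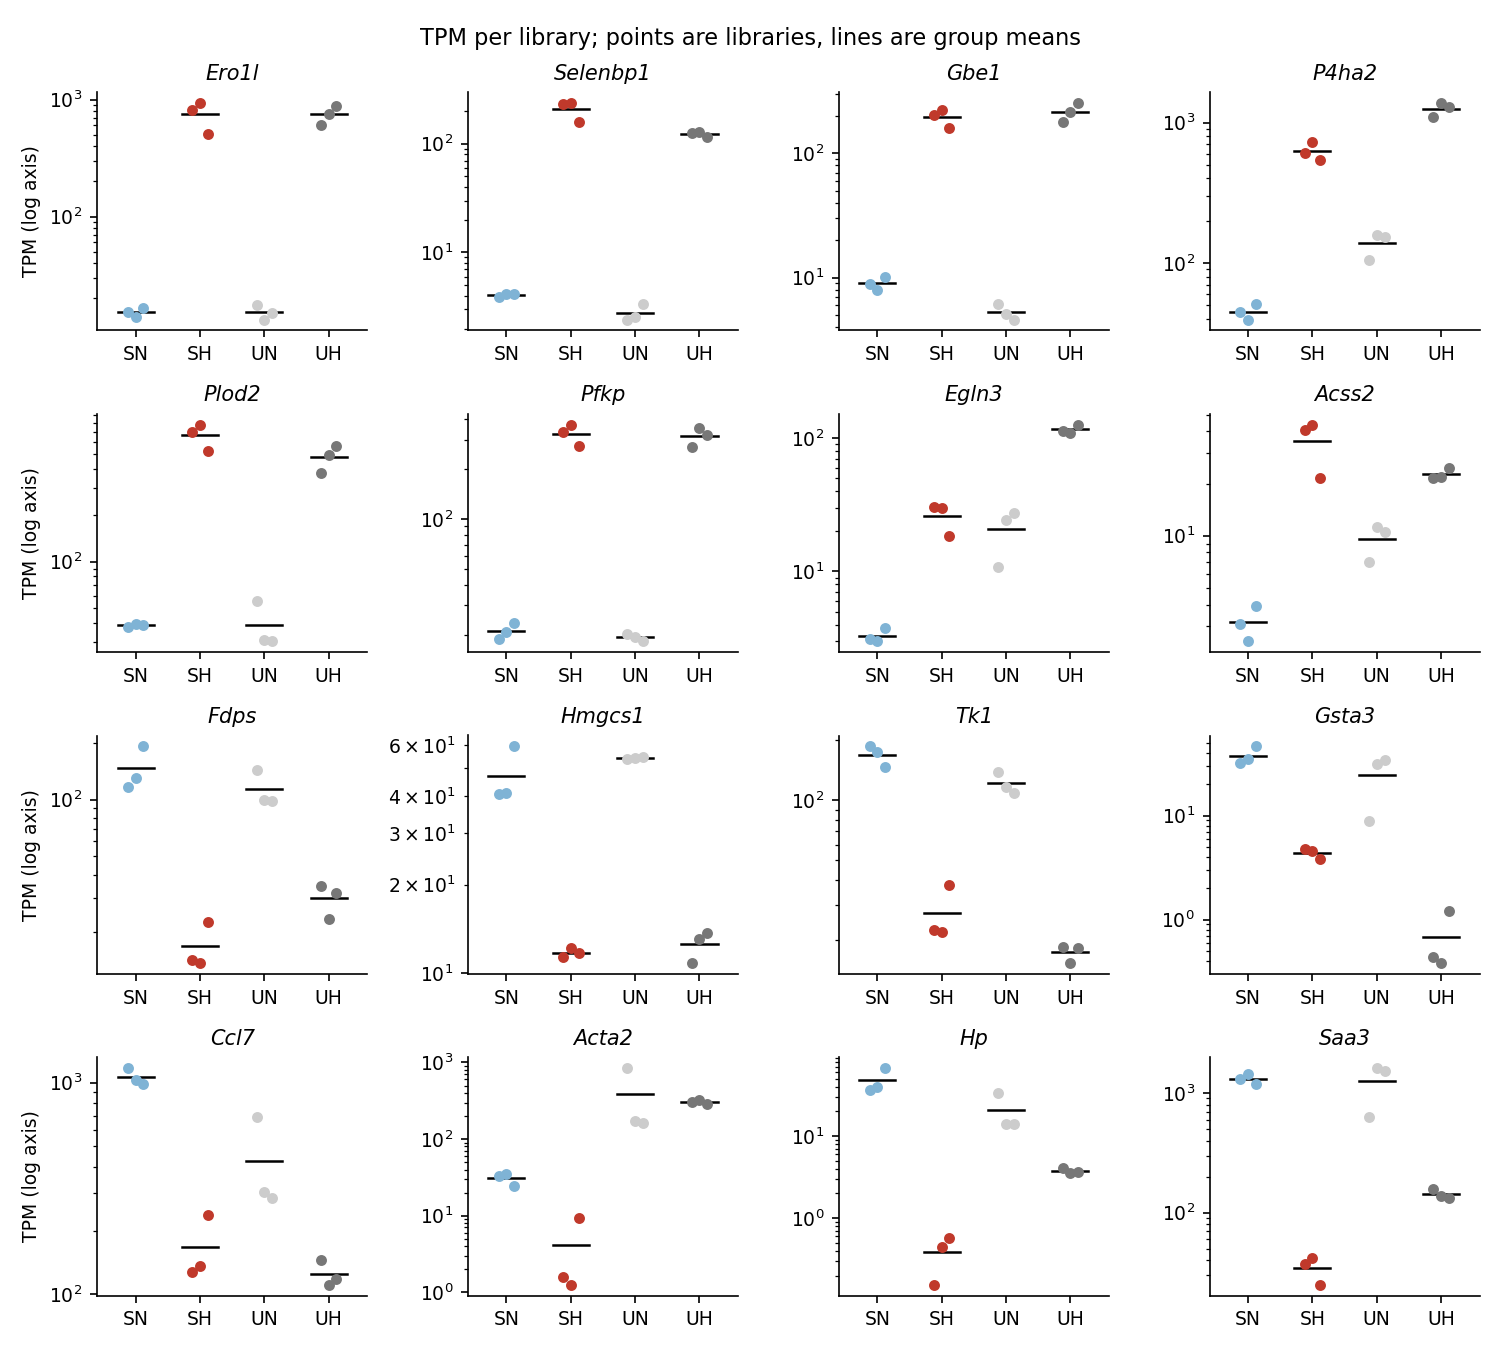
TPM of 16 genes on log axes, 1 panel a gene, with a point for each library and a line at each group mean for SN, SH, UN and UH. The top 8 genes rose in SH and the bottom 8 fell, with SN and SH in separate ranges in every panel. Genes named for a large change were chosen among those without overlap.

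Glucose uptake and glycolysis moved as a block, with 17 of 22 tested members called higher, none lower and a median of 1.96. The 22 values ran from −0.71 to 3.89. Pfkp, which commits sugar to glycolysis, led, from 18.9, 20.7 and 23.6 TPM to 333, 371 and 276 TPM (3.89, standard error 0.13, adjusted p = 1.37e-08). Eno2 and Gpi1, a second enolase and the glucose-6-phosphate isomerase, followed at 3.12 and 2.55, and the glucose transporter Slc2a1 at 2.64. Some messages that were already high in normoxia still rose: Pgk1 from 413, 363 and 420 TPM to 2222, 2332 and 2248 TPM and Ldha, which makes lactate, from 807, 762 and 772 TPM to 2185, 2245 and 2438 TPM. Summed over the list, TPM went from 11901, 15602 and 16962 in SN to 58314, 53654 and 49166 in SH. The list thus took a larger part of the transcript pool in each SH library than in any SN library.

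At the step where pyruvate enters mitochondria, 2 of 13 tested genes were called, both kinases that switch pyruvate dehydrogenase off. Pdk1 went from 12.6, 13 and 15 TPM to 99.4, 94.9 and 79.2 TPM (2.66) and Pdk3 from 17.6, 18.5 and 17.0 TPM to 54.6, 60.1 and 48.3 TPM (1.56). For acid and lactate export, 3 of 14 were called higher and 1 lower. Bsg, the chaperone of lactate transporters, rose most, from 689, 686 and 712 TPM to 8610, 9658 and 5398 TPM (3.46), which made it one of the most abundant messages in SH. The bicarbonate carrier Slc4a4 rose by 2.12 and the carbonic anhydrase Car2 fell by 1.61. Car12, another carbonic anhydrase, was called at 1.61 from 0.223 to 0.344 TPM in SN and 3.79, 3.73 and 1.69 TPM in SH, and its call was lost without SH replicate 1 (1.46), SH replicate 2 (1.47), SN replicate 1 (1.56) or SN replicate 2 (1.62). Car9, the carbonic anhydrase often used to mark hypoxic tumors, stayed at or below a mean of 0.037 TPM in both groups.

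Glycogen genes gave 7 called higher of 21 tested and none lower, with a median of 0.36. These covered the making of the polymer: Gbe1, the branching enzyme, read 8.92, 7.97 and 10.1 TPM in SN and 204, 224 and 159 TPM in SH, and Gys1, the muscle-type synthase, 32.8, 33.0 and 39.6 TPM and then 385, 381 and 307 TPM (3.31). Ppp1r3c and Ppp1r3b, which bring a phosphatase to glycogen and so activate the synthase, rose by 3.10 and 2.80 from means below 2 TPM. For both of these SH replicate 3 (7.08 and 3.06 TPM) was lower than the other SH libraries by more than 2-fold.

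Of the 13 messenger RNAs encoded in the organelle 9 were called lower and none higher, with a median of −1.59. mt-Atp8 went from 17089, 9824 and 16230 TPM to 1742, 1716 and 2805 TPM (−2.78) and mt-Atp6 from 12065, 8807 and 12912 TPM to 2168, 2089 and 3587 TPM (−2.13), both subunits of ATP synthase. For mt-Nd2, a complex I subunit, SH replicate 3 (3404 TPM) was near the SN range of 4557 to 5634 TPM while the other SH libraries read 1041 and 956 TPM. mt-Nd4l gave −2.79, but its values in SH were spread from 11.3 to 123 TPM and the call was lost without SH replicate 2 (−1.90), SH replicate 3 (−2.90), SN replicate 1 (−2.55) or SN replicate 2 (−2.65). Transcripts of the organelle made up 8.38%, 7.64% and 8.27% of TPM in SN and 2.94%, 2.66% and 4.68% in SH, groups that did not overlap (exact two-sided permutation test, p = 0.1, the smallest that 3 libraries against 3 allow).

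Nuclear genes of the respiratory chain mostly fell, but by small amounts: 2 of 72 tested were called higher and 3 lower, with a median of −0.44 and 60 of 72 below 0. Without the fold threshold, 43 were lower and 3 higher, where 3694 of all 18909 genes were lower and 4062 higher. Without SH replicate 3 the count called lower at both thresholds was 6. The 2 risers were Ndufv3, a complex I subunit (264, 263 and 324 TPM, then 985, 1040 and 839 TPM; 1.75), and Cox7a1, the heart and muscle form of a cytochrome oxidase subunit (1.89, but with a pseudocount of 0.1 adjusted p = 0.0692 and not called). Atp5g3 and Cox5a fell, at −1.39 and −1.13. The citric acid cycle had 2 of 17 called lower, Idh3a (94.2, 83.1 and 85.6 TPM, then 27, 29.7 and 33.6 TPM; −1.51) and Ogdh (−1.09, or −0.98 and not called with quantile normalization), and its median was −0.57. Mitochondrial ribosomal proteins gave 5 lower (10 without SH replicate 3, 8 without SN replicate 3) and 1 higher of 77, with a median of −0.46. Among them were Mrpl12 at −1.35 and Mrpl24 at 1.02, whose call was lost without SH replicate 1 (1.00) or SH replicate 2 (0.98).

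Cytosolic ribosomal proteins did not follow them. None of 78 was called in limma, and the median was 0.36. At the adjusted p alone 43 were higher and 1 lower (51 and 2 at an unadjusted p under 0.05). Of all 18909 genes, 4062 passed the adjusted p alone as higher and 3694 as lower (4820 and 4328 unadjusted). The most abundant of the 78, Rplp0, read 4848, 4829 and 5344 TPM in SN and 6113, 6354 and 6720 TPM in SH (0.35, adjusted p = 0.0341). Genes that build ribosomes moved the other way, with 18 of 36 called lower, none higher and a median of −0.97. Dkc1, the pseudouridine synthase of the nucleolus, went from 159, 182 and 151 TPM to 30.1, 36.7 and 55.9 TPM (−2.02), Nhp2, its partner, gave −1.71, Nolc1 −1.53 and Rrs1 −1.52.

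Cholesterol synthesis and uptake fell, with 18 of 28 tested members called lower, 1 higher and a median of −1.37. Fdps (chromosome 3, 89093588 to 89101959), which makes farnesyl diphosphate, went from 117, 131 and 191 TPM to 14.2, 13.6 and 22.6 TPM (−3.05, standard error 0.24, adjusted p = 2.99e-06). Hmgcs1, whose window is printed above, went from 40.7, 41.0 and 59.3 TPM to 11.3, 12.1 and 11.7 TPM (−1.89). Idi1, which acts just before Fdps, gave −2.30. Srebf2, the factor that drives these genes, read 68.3, 70.8 and 74.9 TPM and then 29.6, 25.1 and 26.6 TPM (−1.37). The INSIG pair, which hold SREBP factors in the endoplasmic reticulum, split: Insig1 fell by 2.22 and Insig2, the exception on the list, rose from 20.5, 19.8 and 21.1 TPM to 77.2, 72.0 and 47.1 TPM (1.60).

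Fatty acid synthesis gave 8 of 18 called lower and 1 higher, with a median of −0.80. Scd1, the oxygen-using desaturase, gave −2.08, the elongase Elovl6 −1.77 and Fasn, the synthase, −1.66 (220, 285 and 254 TPM, then 67.2, 64.2 and 115 TPM). Acss2 was the exception. This enzyme, which makes acetyl-CoA from acetate, rose from 3.09, 2.45 and 3.92 TPM to 40.5, 43.8 and 21.5 TPM (3.08, standard error 0.25). Fatty acid oxidation had 1 of 24 called, Acadl at −1.26. For lipid droplets and triglyceride storage 6 of 22 were called higher and none lower: Hilpda, a droplet protein that blocks lipolysis, rose from 10.2, 13.6 and 16.7 TPM to 228, 231 and 124 TPM (3.72), Dgat2, which makes triglyceride, by 1.83 and Lpin1 by 1.46.

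DNA replication and nucleotide synthesis had 36 of 50 members called, all lower, and all 50 values were below 0 with a median of −1.49. Tk1, which salvages thymidine, went from 187, 174 and 147 TPM to 22.2, 22 and 37.8 TPM (−2.63, standard error 0.19). The replicative helicase was part of the fall, Mcm4 going from 118, 115 and 103 TPM to 18.9, 18.4 and 30.8 TPM (−2.29) and Mcm2 giving −2.28, as was Gins1 (−2.39), a partner of that helicase. In each of these 4, SH replicate 3 was the highest of the SH libraries, yet below all SN libraries, which the choice of named genes required.

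Mitosis and spindle genes gave 7 of 40 called lower and none higher, with a median of −0.54 and values from −1.99 to 0.91. Mad2l1, of the spindle checkpoint, gave −1.99, Foxm1, a driver of mitotic transcription, −1.52, Nuf2, of the kinetochore, −1.44 and Ccna2, cyclin A2, −1.21. Mki67, the proliferation marker, read 79.0, 78.7 and 63.7 TPM in SN and 51.9, 56.3 and 49.9 TPM in SH (−0.47, adjusted p = 0.0976). In unsorted cells all 40 were called lower in UH vs UN, where 11.8% of all genes were called lower and 5.46% higher, with a median of −1.98. The difference of the responses, (SH − SN) − (UH − UN), was called as more positive in sorted cells for 32 of the 40, against 8.08% of all genes. With median-of-ratios scaling, which takes the median difference of all genes from 0.25 to 0.02, it was called for 22, and with quantile normalization for 29. Of replication genes 6 of 50 were called as more positive and none as less positive, against 8.08% and 2.18% of all genes, with 1 more and 1 less positive under median-of-ratios scaling and 1 more positive with quantile normalization.

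**Figure D4:**
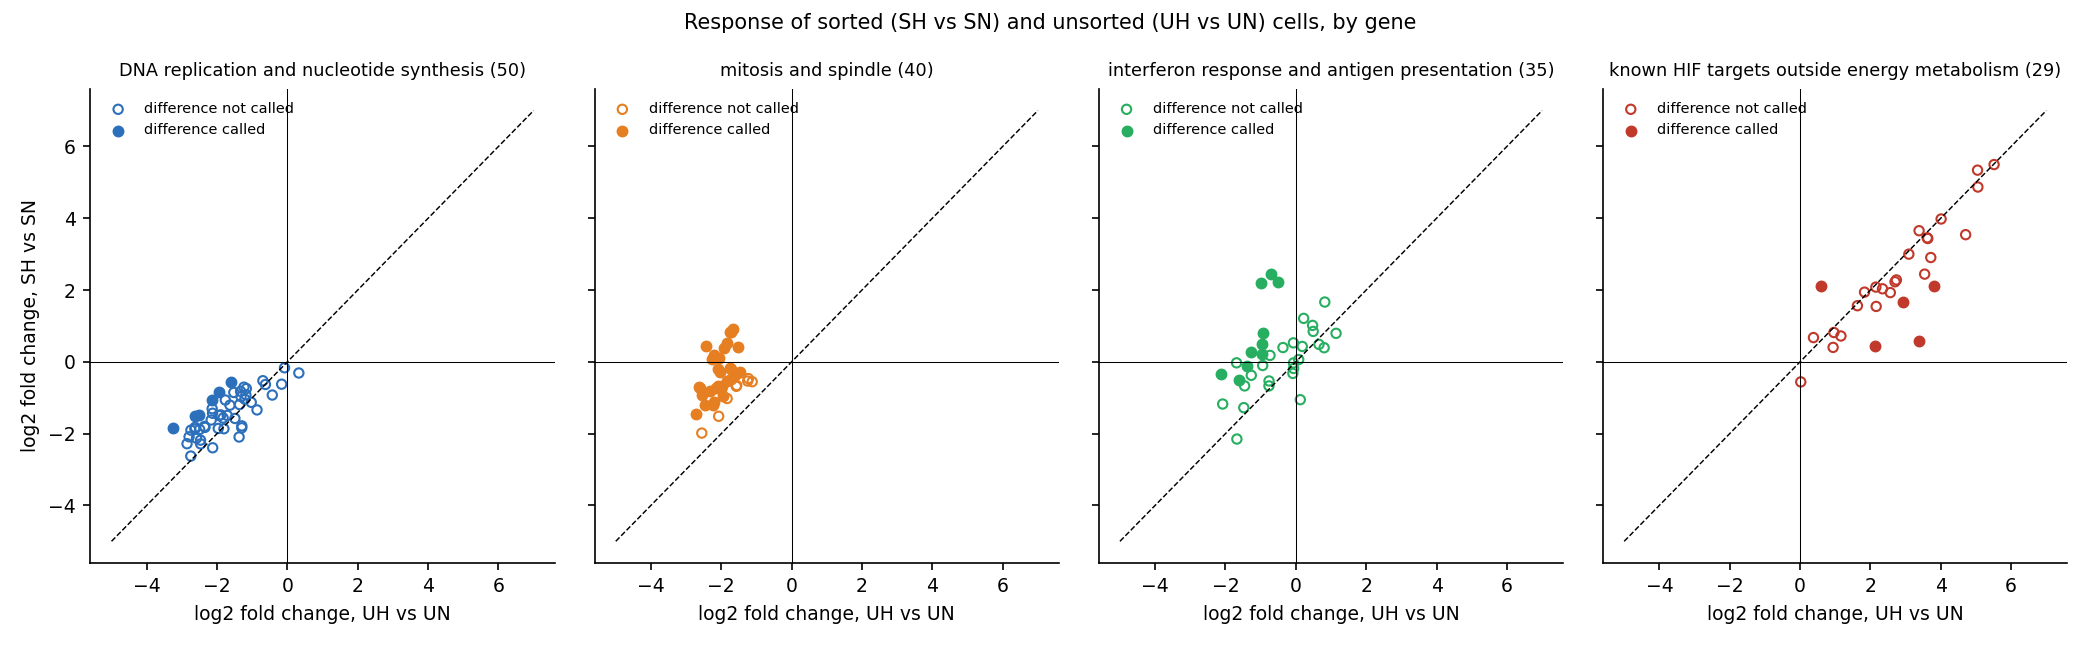
Each point is a gene of the named list, with its UH vs UN log2 fold change on the horizontal axis and its SH vs SN log2 fold change on the vertical axis; filled points are genes whose difference of responses was called and the dashed line marks equal responses. Mitosis genes (40) lie above the line, 32 of them filled, while most replication genes and HIF targets lie close to it and 10 of 35 interferon genes are filled, all above it.

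Inhibitors of the cell cycle and p53 targets gave 8 of 25 called higher and none lower, with a median of 0.47. Cdkn1a, the CDK inhibitor p21, went from 181, 192 and 211 TPM to 776, 790 and 572 TPM (1.85). Sesn2, a stress-induced brake on mTORC1, rose by 2.04. Perp, a desmosomal death effector (1.64, 2.45 and 2.19 TPM, then 16.3, 20.3 and 11.1 TPM; 2.42), and Pmaip1, the death agonist NOXA (1.56), also rose. In the MYC and MAX network 2 of 12 were called, the MYC antagonists Mxd1 (2.24) and Mxi1 (2.23), while Myc itself read 184, 191 and 176 TPM in SN and 173, 157 and 193 TPM in SH. The Myc log2 fold change was −0.08 (adjusted p = 0.683) and turned to 0.10 with quantile normalization, neither being called. Of β-catenin targets 3 of 16 were called lower and 1 higher, with a median of −0.45. Ccnd1, cyclin D1, was the strongest, from 519, 533 and 350 TPM to 103, 106 and 136 TPM (−2.0), and Ctnnb1, which encodes β-catenin, gave −0.62, short of the fold threshold. Axin2, a fixed gene of interest on the list of targets, was not called (−0.42, limma adjusted p = 0.277), and its SN and SH libraries overlapped. YAP and TAZ targets gave 2 of 20 lower, with Tead2 at −1.61, and Yap1 gave −0.28 (adjusted p = 0.156).

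None of 23 unfolded protein response genes was called in limma. At the adjusted p alone 4 were higher and 5 lower (5 and 6 at an unadjusted p under 0.05). Of all 18909 genes, 4062 passed the adjusted p alone as higher and 3694 as lower (4820 and 4328 unadjusted). The chaperone Calr stayed at 1368 to 1483 TPM in SN and 1257 to 1443 TPM in SH. Of 32 genes of the integrated stress response 15 were called higher and 2 lower, with a median of 0.67. Vldlr, a lipoprotein receptor, went from 11.6, 10.7 and 11.4 TPM to 120, 124 and 112 TPM (3.29), Trib3, an AKT-binding pseudokinase, from 6.98, 4.60 and 10.2 TPM to 71.8, 61.4 and 70.8 TPM (3.12) and Slc1a4, a neutral amino acid carrier, from 6.78, 7.41 and 5.93 TPM to 40.9, 40.4 and 42.0 TPM (2.45). Atf3 rose by 2.85 with a wide SN range of 8.22 to 49.1 TPM. Phgdh, the first enzyme of serine synthesis, went against the list (−1.47).

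Among NRF2 targets, 16 of 34 were called lower and 1 higher, with a median of −0.93. Gclm, a subunit of the enzyme that limits glutathione synthesis, went from 216, 233 and 234 TPM to 40.3, 46.4 and 48.9 TPM (−2.31, standard error 0.22). Gsta3, a glutathione transferase, went from 32.1, 34.6 and 46.2 TPM to 4.80, 4.55 and 3.83 TPM (−2.83), and its relative Gsta2 gave −2.03, with a near-identical copy in Gsta1 that could share its reads. Ephx1, an epoxide hydrolase, was the exception (1.16). Nfe2l2, which encodes NRF2, gave −0.48 (adjusted p = 0.0108), short of the fold threshold. Of metal and iron genes 3 of 22 were called higher and 4 lower: Mt2 went from 5.05, 4.08 and 7.0 TPM to 92.5, 98.8 and 101 TPM, Mt1 rose by 3.13 and the transferrin receptor Tfrc by 1.5, while Fth1, ferritin heavy chain and also an NRF2 target, went from 8473, 9348 and 9749 TPM to 3643, 3320 and 3257 TPM (−1.43) and the ferrireductase Steap3 fell by 1.44.

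Of 22 collagen hydroxylases, crosslinkers and chaperones 7 were called higher and 2 lower, with a median of 0.57. Plod2 (chromosome 9, 92542223 to 92608428), a lysyl hydroxylase, went from 37.2, 39.3 and 38.6 TPM to 700, 778 and 523 TPM (4.06, standard error 0.23), P4ha2 from 44.5, 39.6 and 51.0 TPM to 608, 725 and 546 TPM (3.77) and P4ha1 from 72.8, 63.5 and 67.6 TPM to 591, 645 and 477 TPM (3.04). P4hb, the common β subunit of the prolyl hydroxylases, reached 5502, 6737 and 4357 TPM from 725, 728 and 917 TPM (2.79). All 4 spend or serve oxygen-dependent reactions, and the SN and SH ranges lay wide apart. The C-proteinase enhancers Pcolce and Pcolce2 fell, at −1.60 and −1.37.

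Collagen chains gave 7 of 22 called higher and none lower, with a median of 0.25: Col1a1 went from 5.65, 6.71 and 7.62 TPM to 26.3, 24.7 and 15.5 TPM (1.57) and Col27a1 from 1.46, 1.14 and 1.36 TPM to 7.98, 7.43 and 6.33 TPM (1.83). Other matrix genes gave 6 higher and 3 lower of 39. Fbln2, a fibulin, rose by 2.24 and Vwa1, of basement membranes, by 4.44 from 0.14, 0.223 and 0.118 TPM. Mmp9, a gelatinase, went from 107, 111 and 140 TPM to 23.4, 15 and 18.4 TPM (−2.60), Spp1, osteopontin, from 4716, 4103 and 4637 TPM to 823, 1006 and 960 TPM (−2.27), and the proteoglycan Dcn fell by 2.23.

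Ligands and receptors of vessel growth gave 11 called higher and 4 lower of 33, with a median of 0.19. Besides Vegfa and Adm, Angptl4 went from 0.952, 1.15 and 1.56 TPM to 20.2, 19.6 and 14 TPM (3.08) and Figf, which encodes VEGF-D, from 11.3, 15.9 and 20.5 TPM to 81.9, 80.5 and 89.2 TPM (2.36). The angiopoietins, ligands of the Tie2 receptor, fell from low levels, Angpt1 from 1.98, 1.71 and 3.35 TPM to 0.136, 0.306 and 0.269 TPM (−1.41) and Angpt2 by 1.15, a call that was lost without SH replicate 3 (−0.90). Nrp2, a VEGF coreceptor, gave −1.24 and the endothelin receptor Ednra −1.21, the latter not called without SN replicate 3 (−0.97). Tek, whose promoter drove the reporter of the sort, read 2.69, 2.70 and 2.07 TPM in SN and 3.29, 3.00 and 2.83 TPM in SH. Its ranges did not overlap, but its log2 fold change of 0.22 was not called (adjusted p = 0.181) and was −0.04 with quantile normalization.

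Of 15 endothelial markers 10 passed the filter on low values, 5 were called higher and none lower. The 5, named after their values were seen, were Eng (1.16, 1.2 and 1.07 TPM, then 6.28, 7.24 and 5.39 TPM; 1.76), Esam (1.41), Plvap (1.11), Flt1 (1.06) and Vwf (1.02). The last 3 were under the fold threshold with quantile normalization (0.84, 0.78 and 0.81), Plvap without SH replicate 2 (0.98) and Vwf without SH replicate 3 (0.93). Vwf had a mean of only 0.103 TPM in SN and 1.26 TPM in SH. Summed over the list, endothelial markers came to 10.3 to 11.4 TPM in SN and 23.7 to 33.1 TPM in SH. The sums were higher in unsorted cells, at 23.1 to 55.5 TPM in UN and 63.3 to 78.4 TPM in UH, so a rise of the sum is not particular to sorted cells. The median of the 10 was 0.68 in SH vs SN and 0.04 in UH vs UN, where 3 were called higher and none lower. Responses were called as more positive in sorted cells for 2 and less positive for 1, against 8.08% and 2.18% of all genes. Median-of-ratios scaling and quantile normalization each gave 1 and 1. Cdh5, Tie1, Erg, Cldn5 and Emcn, which define mature endothelium, were below the filter in these libraries. In bulk RNA, fewer cells of a type and less RNA per cell cannot be told apart, and the same holds for more.

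Markers of other cell types were checked beside these. Hepatocyte or hepatoblast markers summed to 115 to 165 TPM in SN and 97.4 to 177 TPM in SH, most of it from Krt18, and 1 of 11 tested was called higher. Epcam was at 0 in all 6 sorted libraries and Ttr and Fgb were near it. Hnf4a, the leading hepatocyte factor, read 0.429, 0.203 and 0.159 TPM in SN and 0.118, 0.142 and 0.0625 TPM in SH, and Afp, the fetal liver protein, 8.14, 9.65 and 9.80 TPM and then 3.22, 4.71 and 7.30 TPM (−0.80). Of hepatocyte transcription factors 1 of 18 was called, the bile acid receptor Nr1h4 (−1.16). These are values of the sorted libraries, and the hepatocyte or hepatoblast markers summed to 120 to 297 TPM in UN and 182 to 220 TPM in UH. Fibroblast or stellate markers summed to 204 to 218 TPM in SN and 62.8 to 85.3 TPM in SH, with 2 of 10 higher and 3 lower. In unsorted cells they summed to far more, 1476 to 5352 TPM in UN and 5107 to 7442 TPM in UH. The sorted and unsorted populations whose responses are compared thus differed in these transcripts. Macrophage markers summed to 304 to 345 TPM in SN and 126 to 136 TPM in SH, most of it in SN being Cd14 (294, 329 and 330 TPM, then 62.4, 71.5 and 77.0 TPM; −2.16), while Cd68 rose to 55.9, 54.8 and 51.2 TPM (2.66) and Clec4f was at 0, genes likewise named after their values were seen. Lymphocyte markers stayed below 1 TPM in sum, and erythroid markers came to 1.26 to 11.9 TPM in SN and 8.56 to 21.4 TPM in SH. The part of these in the results above was not tested.

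Epithelial genes gave 6 called higher and 1 lower of 18 tested, with a median of 0.46. The list has 26 members, and the others, among them Epcam and Esrp1, were below the filter. Its summed TPM overlapped between SN (295 to 374 TPM) and SH (270 to 425 TPM). Mesenchymal genes gave 1 higher and 5 lower of 20, with a median of −0.09, and their sums overlapped too. Krt19, a keratin of bile duct cells, went from 0.714, 0.438 and 1.36 TPM to 4.0, 4.53 and 6.07 TPM (1.69), Ovol1, an epithelial repressor, from 0.174, 0.229 and 0.288 TPM to 2.45, 4.03 and 1.89 TPM (1.58), and the splicing factor Esrp2 rose by 1.30. The tight junction protein Cldn1 fell by 2.26. On the mesenchymal side Acta2, smooth muscle actin, read 32.8, 34.7 and 24.2 TPM in SN and 1.59, 1.25 and 9.43 TPM in SH (−2.99), Pdgfrb 43.3, 40.3 and 47.7 TPM and then 5.98, 6.19 and 6.06 TPM (−2.66), and S100a4 fell from 5881, 6018 and 4779 TPM to 1188, 1359 and 2229 TPM (−1.85). Vim, vimentin, was the exception, from 1124, 1121 and 1072 TPM to 3200, 3166 and 2660 TPM (1.44). Plasma proteins gave 2 higher and 5 lower of 35. Besides Hp, Sepp1, the selenium carrier, went from 281, 276 and 357 TPM to 37.1, 38.5 and 39.1 TPM (−2.95), while Hgfac, the activator of hepatocyte growth factor, went from 3.22, 3.27 and 2.76 TPM to 37.4, 37.9 and 29.6 TPM (3.13) and Hpx, hemopexin, rose by 2.15.

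Chemokines and cytokines gave 5 lower and 4 higher of 28 (2 higher without SH replicate 2 or without SN replicate 3), with a median of −0.22. Among those that fell were Ccl7, which draws monocytes, from 1173, 1035 and 984 TPM to 128, 136 and 238 TPM (−2.72), Ccl2 from 2860, 3473 and 3241 TPM to 539, 513 and 1057 TPM (−2.26) and Cxcl1, which draws neutrophils, by 1.78, with Cxcl10, a draw for T cells, at −1.93. SH replicate 3 was the highest SH library for all 4. Cxcl12 rose from 45.7, 43.9 and 32.7 TPM to 190, 189 and 222 TPM (2.28) and Il11 by 1.38. Cx3cl1, which draws monocytes, was called higher at 1.10, but not without SH replicate 1 (1.06), SH replicate 2 (1.01), SN replicate 2 (1.10) or SN replicate 3 (1.04). Ccl17, a draw for T cells, was called higher at 1.08, but not without SH replicate 2 (0.92) or SN replicate 3 (0.97), with quantile normalization (0.95) or with a pseudocount of 0.1 (1.27). Immediate early genes gave 7 lower and 5 higher of 26, with a median of 0.32. Egr3 went from 16.7, 11.4 and 23.2 TPM to 1.99, 2.08 and 1.82 TPM (−2.56), Ier2 from 288, 221 and 186 TPM to 36.6, 42.5 and 56.4 TPM (−2.33), Zfp36, which destabilizes cytokine messages, gave −2.22 and Fos −1.79, whereas Klf4 rose by 1.71. Of 35 interferon and antigen presentation genes 6 were called higher and 4 lower. Nlrc5, which switches on MHC class I genes, went from 0.264, 0.240 and 0.605 TPM to 4.96, 9.19 and 5.74 TPM (2.45), Tap1, the peptide transporter, from 5.04, 7.41 and 7.26 TPM to 36.6, 39.8 and 25.8 TPM (2.21), and Mx2 and Oasl1 rose by 2.22 and 1.67, while Ifit2 (−2.15) and Ifitm3 (−1.28) fell. Clock genes gave 6 higher and 1 lower of 19: Ciart, a repressor of the clock, went from 7.10, 4.83 and 7.97 TPM to 51.2, 55.4 and 48.2 TPM (2.81), Bhlhe41 and Bhlhe40, repressors that are also HIF targets, rose by 2.11 and 1.68, Rora by 1.54, and Hlf fell by 1.22.

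The response of the sorted cells was set against that of unsorted cells gene by gene, in comparisons that share no library. Over all genes, 1527 (8.08%) were called as more positive in sorted cells and 412 (2.18%) as less positive. Median-of-ratios scaling gave 901 and 782 and quantile normalization 772 and 745, and 706 and 407 genes were called the same way under all 3. Without UN replicate 1, which had 845 TPM of Acta2 against 172 and 162 in the other UN libraries, the counts were 2110 and 636. Of the 2357 genes called in SH vs SN, 707 (30.0%) were called for this difference.

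Among genes called in both SH vs SN and the difference, Robo3 stood out as more positive in sorted cells, since UN read 0.543, 0.577 and 0.575 TPM and UH 2.86, 3.11 and 2.74 TPM, against 185, 175 and 136 TPM in SH. Its difference was 4.04 (95% interval 3.53 to 4.55, adjusted p = 2.25e-06). Krt13, a keratin of stratified epithelium, rose in sorted cells from 0.825, 0.542 and 1.52 TPM to 11.5, 15.5 and 15.1 TPM and gave a difference of 3.87. For 1700007K13Rik the difference was 3.65. On the other side Pgf, placental growth factor, reached 178, 172 and 152 TPM in UH but 4.39, 4.09 and 1.61 TPM in SH (difference −5.50, 95% interval −6.25 to −4.75). Tnfrsf9, the costimulatory receptor 4-1BB, reached 322, 377 and 358 TPM in UH and 7.85, 10.04 and 8.97 TPM in SH (−4.06). Sncb, β-synuclein, was at 0 in UN, at 22, 26.8 and 25.0 TPM in UH and at 1.23, 1.44 and 0.942 TPM in SH (−3.56), and its SH vs SN log2 fold change of 1.11 fell short of the threshold with quantile normalization (0.94). Ptgds, a prostaglandin D synthase, and Ranbp3l fell in sorted cells, by 2.85 and 3.57 (differences −3.50 and −3.39).

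Other lists also held members whose responses differed. Of interferon and antigen presentation genes 10 of 35 were called as more positive in sorted cells and none as less positive (7 and 1 with median-of-ratios scaling, 8 and 0 with quantile normalization), Tap1 at 3.21 and Nlrc5 at 3.14. Of chemokines and cytokines 10 of 28 were (7 under either scaling), with Cxcl12 at 2.36 and Cxcl10 at 1.21, the latter below the fold threshold with median-of-ratios scaling (0.92) and with quantile normalization (0.93). Of inhibitors of the cell cycle and p53 targets 7 of 25 were more positive, with Perp at 2.70 and Pmaip1 at 2.37, and 1 less, Cdkn1a at −1.66. HIF targets gave 1 more positive and 4 less positive of 29, glycolysis 0 and 2 of 22, and no ribosomal protein of 78 was called as differing in either direction.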

How the data were processed

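RNA from 12 libraries was sequenced by the authors (stranded messenger RNA preparation, paired-end reads), processed with nf-core/rnaseq 3.12.0 against mm10, per the labels, and deposited as TPM from Salmon, 1 value per gene and library; the annotation release and the Salmon version are not given in the sources used here, nor is the depth, so no counting intervals are possible. From the deposited TPM, log2(TPM + 1) of the 18909 genes with a mean of at least 0.1 TPM was fitted with limma 3.58.1 (R 4.3.3; means for 4 groups in 1 fit of 12 libraries, empirical Bayes moderation with a trend), with Benjamini-Hochberg adjustment over all tested genes, and contrasts SH vs SN, UH vs UN and their difference. Calls need an adjusted p under 0.05 and a fold change above 2. The members of the 40 lists and the markers were chosen with earlier results of these data known. Named genes are the 15 largest changes each way and up to 4 per direction and list, all without overlap between SH and SN libraries. Also named are fixed genes of interest, the highest member of a list with few calls, and the 5 largest differences each way among genes called in both. Not all are printed. Of gene identifiers 98.8% were found in GENCODE M21, and promoter windows are from RefSeq (GRCm38.p6). Single values were compared by exact permutation. Alternatives were another pseudocount, filters, scalings, moderation, a replicate block, the 2 compared groups alone and each library left out. In data simulated for SH vs SN with 18909 genes and independent normal noise, 192 of 200 genes changed 4-fold were recovered (96%), with 7 false calls. The changed genes were drawn only from those with a mean log2(TPM + 1) above 2. Recovery among lower genes was thus not measured. Tables were made with Python 3.11.15, pandas 2.3.3, scipy 1.17.1 and matplotlib 3.10.9. The authors' own test results were not used. Some genes of the lists are counted but not reported here by name.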

Additional observations from a re-analysis of the deposited data

Results flagged for a closer look

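Of 193 named genes, 55 had a response to low oxygen that differed between sorted and unsorted cells by the limma interaction test (adjusted p under 0.05 and a difference above 1 on the log2 scale), 30 more positive and 25 less positive in sorted cells, where 8.08% and 2.18% of all genes were. Named genes were partly chosen for a large difference or a large SH vs SN change, so this count is not a result about them. Values in parentheses are (SH − SN) − (UH − UN). Less positive among genes that rose in sorted cells were Pgf (−5.50), Tnfrsf9 (−4.06), Sncb (−3.56), Car12 (−2.46), Flt1 (−1.72), Bhlhe41 (−1.71), Cdkn1a (−1.66), Slc2a1 (−1.60), Mt2 (−1.55), Mt1 (−1.48) and Bhlhe40 (−1.25). Less positive among genes that fell in sorted cells were Ptgds (−3.50), Ranbp3l (−3.39), Acta2 (−3.08), Hp (−3.02), Slco4a1 (−2.33), Saa3 (−2.21), Egr3 (−2.18), S100a4 (−2.17), Pcolce (−2.15), Slc17a1 (−2.05), Pdgfrb (−1.29), Gsta2 (−1.23), Cldn1 (−1.18) and Fdps (−1.17).

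More positive among genes that rose in sorted cells were Gm17035 (5.84), Sned1 (4.77), Robo3 (4.04), Krt13 (3.87), 1700007K13Rik (3.65), Cx3cl1 (3.47), Tap1 (3.21), Nlrc5 (3.14), Cdsn (2.76), Mx2 (2.72), Perp (2.70), Ccl17 (2.63), Pmaip1 (2.37), Cxcl12 (2.36), 2610528A11Rik (2.31), Hpx (2.30), Aire (2.07), Acss2 (1.90), Slc1a4 (1.63), Col27a1 (1.63), Figf (1.38), Esam (1.36), Hgfac (1.10) and Vwf (1.08). More positive among genes that fell or were not called in sorted cells were Hnf4a (1.79), Nuf2 (1.28), Mki67 (1.24), Ccna2 (1.24), Cdkn2a (1.23) and Cxcl10 (1.21). Hnf4a had a mean of only 0.263 TPM in SN, so it had little room to fall in sorted cells. Its means were 3.85 TPM in UN and 0.161 TPM in UH. With median-of-ratios scaling or quantile normalization 8 of the 55 were not called: Bhlhe40, Vwf, Hgfac, Cxcl10, Cdkn2a, Ccna2, Mki67 and Nuf2. Gm17035 lies antisense to Ndrg1, which was itself called higher (3.45, looked up after the values were seen), and strand use in counting is not given in the sources used here; its SH vs SN call (3.42) was lost without each of the 6 sorted libraries in turn (3.09 to 3.83), and its difference was not called without each of 8 libraries in turn (4.97 to 5.95). The SH vs SN call of Sned1 (1.43) was lost without SH replicate 1 (1.25), SH replicate 2 (1.33), SN replicate 1 (1.41) or SN replicate 2 (1.35).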

How the results depend on the processing

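Higher genes in SH vs SN numbered 1310 to 1671 and lower genes 892 to 1016 when each sorted library was left out, and the mitochondrial share in SH minus SN was −5.30 to −4.29 percentage points. The counts of 1671 and 1016 and the share of −5.30 were those without SH replicate 3. A pseudocount of 0.1 gave 2854 higher genes in SH vs SN and 1580 in UH vs UN, and dropping the fold threshold gave 4062 higher and 3694 lower in SH vs SN. With median-of-ratios scaling UH vs UN had 1564 genes higher and 1217 lower (1032 and 2222 as deposited), beside 901 more and 782 less positive differences (1527 and 412 as deposited); with quantile normalization UH vs UN had 1343 genes lower, beside 772 and 745 differences. With a library left out, UH vs UN had 976 to 1150 genes higher and 1994 to 2619 lower, beside 1266 to 2110 more and 335 to 636 less positive differences, the highest counts of differences (2110 and 636) and of genes lower in UH vs UN (2619) being without UN replicate 1 and the highest count of genes higher in UH vs UN (1150) without UH replicate 1; leaving out unsorted libraries was added after seeing the data. Over all genes the SH vs SN median stayed between −0.055 and 0.054 (log2). Values that changed sign were those of Arnt without SH replicate 1 (−0.0091, against up to 0.23 without SH replicate 3) and, with quantile normalization, Myc (0.096) and Tek (−0.043), none of them called. Of 179 named genes called in SH vs SN, 162 kept the call under every alternative tried and 13 lost it without 1 library or another. Of 1360 alternative list counts 109 differed by over 1.5 times from the value as reported. Residual correlations of same-numbered SH and SN libraries were −0.055 to 0.0086. With 3 libraries a group these cannot show whether replicate numbers pair the libraries. A replicate block gave 1410 higher and 947 lower genes, and among named genes mt-Nd4l was not called with it (adjusted p = 0.0534, limma). TPM hold no depth, so precision rests on 3 libraries a group.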
